A study of Zea mays with 6 samples.

Results

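The genes described here are the non-storage neighbours of the storage protein genes near the start of maize chromosome 4, in endosperm with and without the transcription factors ZmNAC128 and ZmNAC130. They were taken as every gene with an ID from Zm00001eb164730 to Zm00001eb167340 that averaged at least 1 FPKM (fragments per kilobase of gene, scaled to the library's reads) over both genotypes and less than 500 FPKM in the wild type (WT), leaving out the storage genes Zm00001eb166610, Zm00001eb166620 and Zm00001eb166950. Of the 262 IDs in the stretch, 77 were at 0 in all 4 libraries, 162 (those included) averaged below 1 FPKM, and 9 reached 500 FPKM or more in the WT, the 3 storage genes among them. This left 91 members of the 44303 genes in the table. The members were selected on their FPKM levels, and the stretch itself was proposed with the change between genotypes in view, so the counts below describe the stretch and are not independent evidence that it is special.

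RNA-seq was made from endosperm collected 16 days after pollination from *zmnac128 zmnac130*, which carries knockouts of both NAC genes, and from WT siblings without them. Both genotypes segregated from a cross of inbred B73 with the mutant in inbred KN5585, so that their backgrounds mix the parents' alleles, and each RNA came from several pooled endosperms. Of 3 samples labelled per genotype, replicate 3 repeated the values of replicate 1 in all 44303 genes. The pair differed by less than sampling noise allows and was taken as 1 sample, leaving 2 distinct libraries per genotype. Their FPKM were scaled to totals of 26317317 to 30696032 reads, as inferred from the steps of the values. The 7 genes described as zeins in the study's gene list had at least 1149 FPKM in each WT library and at least 325 FPKM in each mutant library. Zein transcripts are the defining ones of this tissue. Which IDs belong to the 2 mutated NAC genes is not given in the sources, and their own levels were not checked.

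Zeins are the main storage proteins of the maize kernel. Their genes are expressed in the starchy endosperm, many lie in clusters of close copies, and their transcripts are among the most abundant of the tissue during grain filling. NAC proteins are plant transcription factors, and ZmNAC128 and ZmNAC130 act in endosperm on storage genes, among them zein genes. Genes that sit beside such a cluster share its stretch of chromosome but need not share its function, and the question here was whether they changed together in the mutant and where.

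Few members have a name. The files give IDs alone, and accessions in the study's gene list paired 2 members with a description. Zm00001eb164860 is BX6, the DIBOA-glucoside dioxygenase of benzoxazinoid synthesis, the pathway of grass defence compounds, and RefSeq, on the assembly Zm-B73-REFERENCE-NAM-5.0, puts its gene (LOC541977) at chromosome 4, 2151421 to 2152928. Zm00001eb166850 is listed with no known function. Among the storage genes, Zm00001eb166620 is the 22 kDa alpha-zein z1C1_8 at chromosome 4, 6153607 to 6154565, Zm00001eb166940 is the 19 kDa alpha-zein ZG99, and Zm00001eb166950 is described as a putative storage protein. Of 175 listed genes over the genome that could be paired with RefSeq, 173 stood in the same order by ID and by chromosome and start. ID order is therefore used below as the order along the chromosome. Inside the stretch only BX6 and z1C1_8 were so paired, and the next paired gene, Zm00001eb170070, lies beyond its end. The order of the other genes of the stretch was thus not checked.

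The description of the members as non-storage genes could not be checked for those beside z1C1_8. RefSeq names 11 z1C1 genes among the 12 genes between 6076680 and 6154565, which end at z1C1_8. After it come LOC103652771, at 6157142 to 6158219 and without a zein name, and then z1C1_10, z1C1_19 and z1C1_20. Their IDs are not paired with names here. The members Zm00001eb166580, Zm00001eb166590 and Zm00001eb166630 are the nearest members to z1C1_8 by ID and may be zein copies. The abundant genes Zm00001eb166600 and Zm00001eb166610, which are not members, lie between Zm00001eb166590 and z1C1_8. By ID order Zm00001eb166630 may instead be LOC103652771. Zm00001eb166540 and Zm00001eb166550, which are 8 and 7 ID places before z1C1_8, may also be zein copies. Reads of near-identical copies can be split or shared between genes in ways that the sources used here do not state, so the values of these 5 members are uncertain.

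More members were lower than higher in *zmnac128 zmnac130*, but they did not move as a block. A member was called at an absolute log2 difference above 1 on the log2(FPKM + 1) scale with an adjusted p below 0.05 (limma, Benjamini-Hochberg adjustment over 19082 genes). Of the 91 members, 22 were called lower (24.2%), against a background of 7.18% of all genes tested. A further 9 members were called higher (9.89%), against 6.43%, which made 31 called in either direction (34.1%), against 13.6%. The remaining 60 were not called, and 39 of all members differed by less than 0.5 on the log2 scale.

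The members' median log2 difference was -0.17 (all genes tested: 0.0068), and 56 of 91 lay below 0 (61.5%, against 49.5% of all genes tested). Their median absolute difference was 0.64, against 0.36 for all genes tested. At an adjusted p below 0.05 with no threshold on size, 38 members were lower, against a background of 20.9%, and 15 were higher, against 22.9%. The 2 WT libraries did not overlap the 2 mutant libraries in 73 members (80.2%), 46 of them lower and 27 higher, against a background of 75.6%.

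Each pairing of a mutant with a WT library gave a like picture. The median of the members lay between -0.23 and -0.19 in the 4 pairings, with 21 to 23 members more than 1 lower and 9 to 11 more than 1 higher. Between the 2 WT libraries the median was 0.058, with 0 members more than 1 lower and 1 more than 1 higher. Between the 2 mutant libraries it was -0.033, with 2 members more than 1 lower and 0 more than 1 higher.

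**Figure D1:**
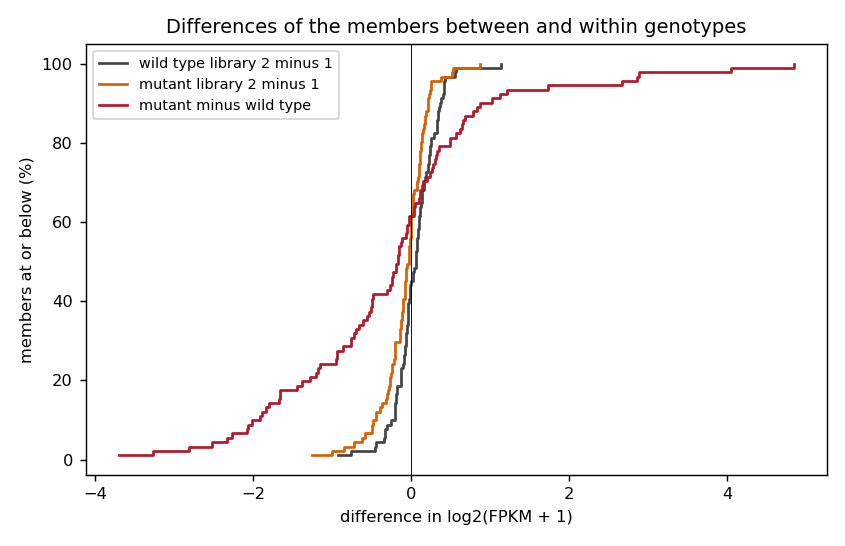
Cumulative share of the 91 members (y axis, percent) by difference in log2(FPKM + 1) (x axis), for WT library 2 minus 1, mutant library 2 minus 1, and the mean of the mutant minus that of the WT. The curve between genotypes has long tails on both sides, from -3.70 to 4.84, and crosses 0 at 61.5% of members, while the curves within a genotype are steep around 0.

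The rule on levels bears on these counts, since a gene that is nearly silent in 1 genotype could pass through the other alone. This was so for 16 members, whose mean was below 1 FPKM in 1 genotype (13 of them lower in the mutant and 3 higher), and 8 of the 22 lower calls and 3 of the 9 higher calls are among them. Of the 75 members with at least 1 FPKM in both genotypes, 14 were called lower (18.7%) and 6 higher (8.0%), where 4.61% and 4.82% of 17280 such genes were called. Of the 36 members that averaged 10 FPKM or more, 6 were called lower (16.7%) and 2 higher (5.56%), where 5.07% and 6.06% of 8396 such genes were.

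The members that fell included well-expressed genes. Zm00001eb164730, the first gene of the stretch, had 162 and 207 FPKM in the WT, and its mutant libraries had 45.6 and 30.2 FPKM. Its mean was 4.86-fold lower in the mutant (log2 difference -2.27 ± 0.21 SE, adjusted p = 0.000637). Zm00001eb165030 had 139 and 123 FPKM in the WT and 34.3 and 33.6 FPKM in the mutant, 3.86-fold lower (-1.91 ± 0.096, adjusted p = 9.17e-05). In both genes every mutant library lay far below every WT library.

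Several falls ended at or near 0. Zm00001eb166930, the member just before the alpha-zein ZG99, fell from 13.6 and 13.8 FPKM in the WT to 0.038 and 0.24 FPKM in the mutant (-3.70 ± 0.15, adjusted p = 4.61e-05), where the mutant values stand for 1 and 6 reads. Zm00001eb165520 had 9.86 and 7.52 FPKM in the WT and 0 in both mutant libraries, and was at least 43.0-fold lower against a floor of 3 reads per library. Zm00001eb166840 had 6.53 and 5.53 FPKM (193 and 151 reads) against 0 and 0, at least 62.5-fold lower. Zm00001eb166070 had 3.79 and 4.27 FPKM against 0 and 0, at least 45.2-fold lower. These 3 genes were thus read in both WT libraries and in neither mutant library, so that their falls have no finite fold and the order of the largest falls depends on the pseudocount.

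Zm00001eb165600 was close to them, with 2.42 and 3.18 FPKM in the WT and 0.040 FPKM (2 reads) and 0 in the mutant. Zm00001eb167340, the last gene of the stretch, had 5.66 and 4.76 FPKM in the WT and 0.58 and 0.38 FPKM in the mutant (-2.07 ± 0.16, adjusted p = 0.000347). Zm00001eb165330 fell from 4.28 and 3.25 FPKM to 0.45 and 0.21 FPKM. The mutant libraries were thus low but above 0 in the latter pair of genes.

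Other falls left a clear level in the mutant. Zm00001eb167230 had 9.86 and 15.1 FPKM in the WT and 1.42 and 1.2 FPKM in the mutant (-2.52 ± 0.21, adjusted p = 0.000425). Zm00001eb166390 had 10.1 and 9.13 FPKM against 1.42 and 1.6 FPKM (-2.08 ± 0.13, adjusted p = 0.000189). Zm00001eb165860 had 15.6 and 20.3 FPKM against 3.68 and 3.63 FPKM (-2.01 ± 0.15, adjusted p = 0.000294). In each of these genes the libraries of a genotype stayed closer to each other than to the other genotype. Zm00001eb165190 had 8.21 and 6.74 FPKM against 1.13 and 1.77 FPKM (-1.80 ± 0.18, adjusted p = 0.000867).

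The rest of the members called lower were Zm00001eb166550, one of the possible zein copies (55.4 and 64.4 FPKM in the WT, 19.6 and 16.7 FPKM in the mutant), Zm00001eb166180 (55.6 and 51.8 against 18.2 and 19.9 FPKM) and Zm00001eb167250 (70.6 and 67.0 against 26.0 and 29.4 FPKM), which were the most abundant of them, with Zm00001eb164840, Zm00001eb165310, Zm00001eb165320, Zm00001eb165970, Zm00001eb166440 and Zm00001eb166540. The 22 log2 falls had a size of 1.15 to 3.70 with a median of 1.87, and their libraries did not overlap in any of them.

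By level in the mutant, the 9 rises were led by 2 members beside or within the zein cluster, which may themselves be zein copies. By log2 difference Zm00001eb166580 was again first, but Zm00001eb166590 came after Zm00001eb166850, Zm00001eb166380 and BX6. Zm00001eb166580 had 28.3 and 25.6 FPKM in the WT and reached 828 and 772 FPKM in the mutant, a 29.7-fold higher mean (log2 difference 4.84 ± 0.096 SE, adjusted p = 1.03e-05). Its neighbour Zm00001eb166590 had 292 and 172 FPKM in the WT and 1696 and 1206 FPKM in the mutant, 6.25-fold higher (2.67 ± 0.28, adjusted p = 0.000963). Both stood above every other member in the mutant. They carried most of the members' summed level in the mutant. The sum over all 91 members was 1946 and 1895 FPKM in the WT and 3711 and 3101 FPKM in the mutant. Without these 2 genes the sum was 1625 and 1697 FPKM in the WT and 1187 and 1123 FPKM in the mutant.

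Other rises came from a near-silent WT level. Zm00001eb166850, listed with no known function, had 0.26 and 0 FPKM (14 and 0 reads) in the WT and 16.8 and 18.4 FPKM (983 and 1023 reads) in the mutant (4.05 ± 0.16, adjusted p = 4.55e-05). Zm00001eb166380 had 0.30 and 0.39 FPKM against 8.58 and 9.34 FPKM, a 25.9-fold higher mean (2.89 ± 0.14, adjusted p = 7.99e-05). Zm00001eb166630, the member next after z1C1_8, had 0.29 and 0.35 FPKM against 3.58 and 3.24 FPKM, 10.5-fold higher (1.74 ± 0.15, adjusted p = 0.000458). All 3 genes were read in both mutant libraries at levels that the WT libraries did not approach.

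The benzoxazinoid gene BX6, Zm00001eb164860, rose. It had 1.74 and 0.44 FPKM in the WT and 11.1 and 16.3 FPKM in the mutant, a 12.5-fold higher mean (2.86 ± 0.33, adjusted p = 0.00134). The WT libraries differed more from each other here than in most members, and both lay well below the mutant libraries. RefSeq places bx1, bx2, bx3, bx4, bx5 and bx8, which encode steps of the same pathway before BX6, between 3850064 and 4113527 on chromosome 4, inside the stretch, but their IDs are not paired and the pathway as a whole was not analysed here. BX6 and Zm00001eb166850 were also in the list that the study selected as changed, in part from these same samples, and their direction is therefore no independent evidence.

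The last 3 rises were small. Zm00001eb166860, next to Zm00001eb166850, had 4.33 and 4.10 FPKM in the WT and 9.29 and 9.99 FPKM in the mutant (1.03 ± 0.12, adjusted p = 0.00133). Zm00001eb165460 had 3.75 and 3.46 FPKM against 10.1 and 7.99 FPKM (1.12 ± 0.15, adjusted p = 0.00221). Zm00001eb165950 had 1.5 and 1.76 FPKM against 6.09 and 4.19 FPKM (1.21 ± 0.19, adjusted p = 0.00401). These 3 calls were each lost when single libraries were left out: without WT replicate 2 all 3 were lost, without WT replicate 1 or mutant replicate 1 Zm00001eb165460 and Zm00001eb165950 were, and without mutant replicate 2 Zm00001eb166860 was.

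**Figure D2:**
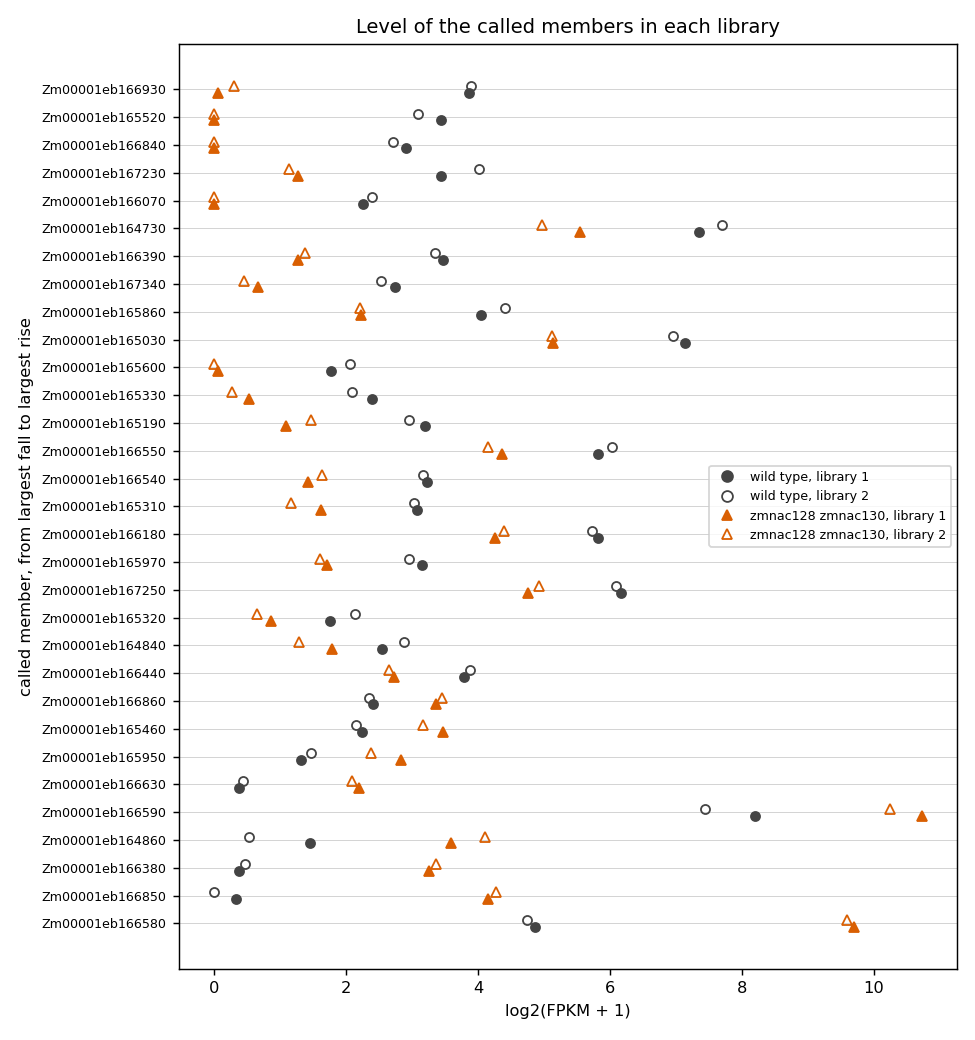
Level of each of the 31 called members, as log2(FPKM + 1), in each library (circles for the WT, triangles for *zmnac128 zmnac130*, filled for library 1 and open for library 2), ordered by log2 difference from the lowest to the highest. In all 22 falls both triangles lie left of both circles, in all 9 rises to their right, and Zm00001eb165520, Zm00001eb166070 and Zm00001eb166840 have both triangles at 0.

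Not all abundant members were called. Zm00001eb166710, among the 5 most abundant, had 141 and 133 FPKM in the WT and 71.4 and 70.7 FPKM in the mutant, and its difference of -0.94 ± 0.085 (adjusted p = 0.000589) stayed short of the size threshold. Zm00001eb164850, the neighbour of BX6, had 68.5 and 86.5 FPKM in the WT and 90.5 and 68.7 FPKM in the mutant (0.034 ± 0.17, adjusted p = 0.885), and the genotypes overlapped. Zm00001eb165060 had 51.9 and 51.3 FPKM against 53.2 and 48.2 FPKM (-0.027 ± 0.090, adjusted p = 0.824). The latter pair was chosen after its values were seen, as examples of abundant members with close values in both genotypes. In all, 22 members passed the adjusted p with a difference of at most 1.

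Changed members were spread over the stretch. To the left of the storage genes lay 62 members, of which 17 were called lower and 6 higher (median log2 difference -0.24). Between z1C1_8 and ZG99 lay 15, of which 2 were called lower and 3 higher (median 0.11). To the right of Zm00001eb166950 lay 14, of which 3 were called lower and 0 higher (median -0.18). The differences between these sections were not tested.

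Over windows of 11 successive members, the lowest median was -0.86, shared by the window from Zm00001eb165000 to Zm00001eb165320, with 4 members called lower and 0 higher, and the next one, from Zm00001eb165030 to Zm00001eb165330, with 5 and 0. The highest was 0.14, in 4 overlapping windows between Zm00001eb165580 and Zm00001eb166070. The largest median absolute difference, 1.67, and the most calls, 4 lower and 4 higher, fell in the window from Zm00001eb166380 to Zm00001eb166630, which reaches just past z1C1_8. That window holds all the possible zein copies, each of them called, so its values are uncertain as those of non-storage genes. The smallest median absolute difference, 0.26, was in 2 overlapping windows between Zm00001eb166990 and Zm00001eb167320, to the right of the storage genes. The longest run of successive members with values below 0 had 8 members, from Zm00001eb165000 to Zm00001eb165260, of which 2 were called. A run of 7, from Zm00001eb166390 to Zm00001eb166550, held 4 called members, the possible zein copies Zm00001eb166540 and Zm00001eb166550 among them. It was followed at once by the rises of Zm00001eb166580, Zm00001eb166590 and Zm00001eb166630, also possible zein copies.

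**Figure D3:**
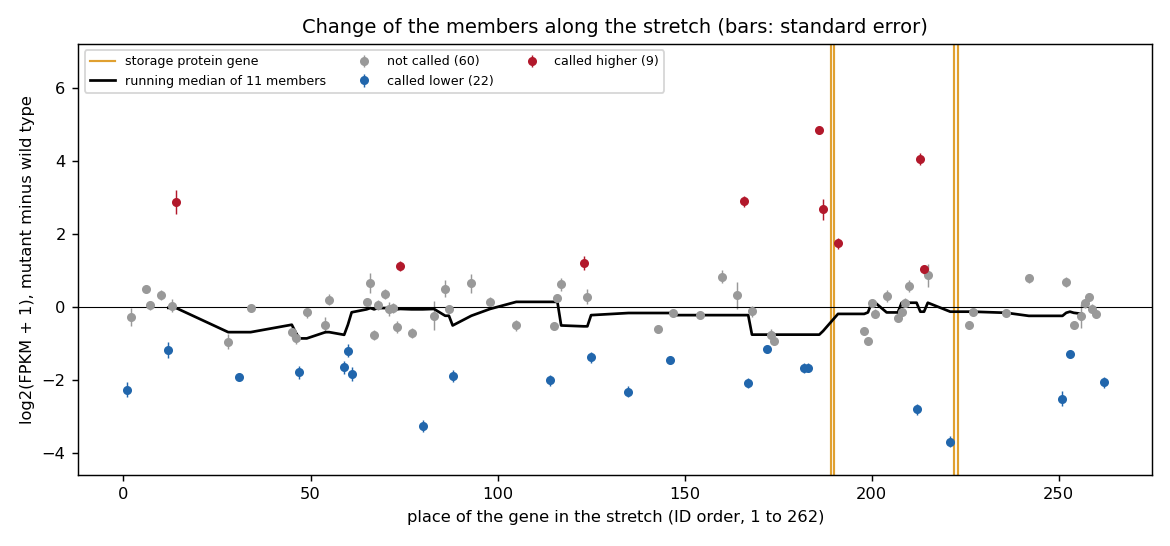
Log2 difference of each member (y axis, mutant minus WT on log2(FPKM + 1), bars for the standard error of limma) by its place among the 262 IDs of the stretch (x axis), with the median of 11 successive members (black) and the storage genes Zm00001eb166610, Zm00001eb166620, Zm00001eb166940 and Zm00001eb166950 (vertical lines). Falls are scattered from end to end, and the running median stays between -0.86 and 0.14. Within 10 places of a storage gene lie 5 of the 9 rises, those of the possible zein copies Zm00001eb166580, Zm00001eb166590 and Zm00001eb166630 among them.

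Members close to a storage gene were called lower about as often as those far from it, and more of them were called higher. Within 10 ID places of Zm00001eb166610, Zm00001eb166620, Zm00001eb166940 or Zm00001eb166950 there were 15 members, of which 4 were called lower and 5 higher (60%), with a median absolute difference of 1.67. All the possible zein copies are among them, and each was called: Zm00001eb166540 and Zm00001eb166550 lower, Zm00001eb166580, Zm00001eb166590 and Zm00001eb166630 higher. Without the latter 3 genes, 6 of 88 members of the whole stretch were called higher (6.82%), close to the background of 6.43%, and 22 lower (25%). At 11 to 50 places, 6 of 30 were called lower and 1 higher (23.3%), with a median absolute difference of 0.41. Beyond 50 places, 12 of 46 were called lower and 3 higher (32.6%), with 0.58. Across the 91 members, the absolute difference and the distance in places had a Spearman correlation of -0.16, a description over genes of the same 4 libraries. Without the 15 nearest members, 18 of the other 76 were called lower (23.7%) and 4 higher (5.26%), with a median of -0.18, so the share called lower was nearly as large away from the storage genes and the share called higher was smaller. These shares were not tested against each other.

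The storage genes and the members nearest to them did not all change alike. Zm00001eb166620 (z1C1_8) fell from 4545 and 4550 FPKM to 631 and 632 FPKM. The nearest members on either side, Zm00001eb166580, Zm00001eb166590 and Zm00001eb166630, rose as given above. They may be zein copies, so their rises cannot be read as those of non-storage genes. Abundant genes left out by the 500 FPKM limit also lie there. Zm00001eb166600 (mean 4854 FPKM in the WT, 3910 in the mutant), Zm00001eb166650 (5412, 4917), Zm00001eb166660 (7914, 7059) and Zm00001eb166960 (3211, 4323) were not called. These uncalled genes have no description here, so whether they are storage genes themselves is not known. They were not counted as storage genes for the distances above. The members next to the right, Zm00001eb166700 and Zm00001eb166710, had 9.55 and 9.35 FPKM against 5.61 and 5.59 FPKM, and 141 and 133 against 71.4 and 70.7 FPKM, neither past the size threshold. On the left of ZG99, Zm00001eb166930 fell to near 0, and Zm00001eb166870 had 4.31 and 6.77 FPKM in the WT and 7.63 and 14.8 FPKM in the mutant (adjusted p = 0.0699). On the right of Zm00001eb166950, Zm00001eb166980 had 45.1 and 39.1 against 29.4 and 29.7 FPKM (-0.49 ± 0.10, adjusted p = 0.0108), and Zm00001eb166990 had 19.8 and 19.6 against 16.9 and 19.0 FPKM (-0.13 ± 0.10, adjusted p = 0.324). A fall, a rise and a small difference were thus each found beside a storage gene. Among these nearest members, the called rises were all in possible zein copies.

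Neighbouring members were only loosely alike. Of 90 pairs of successive members, 54 had the same sign (60%), where 52.0% of 19007 pairs along all chromosomes did. The differences of successive members had a Pearson correlation of 0.033 and a Spearman correlation of 0.070, against 0.10 and 0.072 for all such pairs. In 10 pairs both members were called, and in 7 of these they went the same way, while over all genes 333 of 479 such pairs did. These are descriptions across genes, which are not independent replicates.

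All genes of the table were divided into stretches of the same 262 ID places, with the same limits on level, which gave 166 stretches with at least 20 genes (54 to 152 genes each), the members' own included. The stretch of the members ranked first by share of genes called in either direction, 34.1% against a median over stretches of 12.7%, and first by median absolute difference. It ranked second by share called lower, 24.2% against a median of 6.07%, after the stretch from Zm00001eb382210 to Zm00001eb384650, where 27.7% of 65 genes were called lower and 3.08% higher. It ranked 22 by share called higher, 9.89% against a median of 5.95%. By its median difference it ranked only 10 from the bottom in a range from -0.31 to 0.24. It thus ranked higher by calls of both directions counted together, and by calls lower, than by its median difference. By calls higher alone it ranked below its place by the median. These places are given without a test, since the stretch was picked for its calls. With stretches of equal number of members in place of equal ID span, it ranked first by share called and second by share called lower among 210.

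The stretches before and after the members' stretch by ID held a smaller share of called genes. In the stretch just before, 7 of 120 genes were called lower and 5 higher (10%). That stretch reaches back to chromosome 3, where RefSeq puts its gene Zm00001eb163250, so it is not simply the adjoining part of chromosome 4. In the stretch just after, 8 of 107 were called lower and 18 higher (24.3%). Its share called higher, 16.8%, was above the members' 9.89%. The share of genes with less than 0.5 FPKM in both libraries of 1 genotype only, which passed the level rule through the other genotype, was 9.89% of the members (9 genes), against 2.80% as the median over stretches, and ranked 8 among them.

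**Figure D4:**
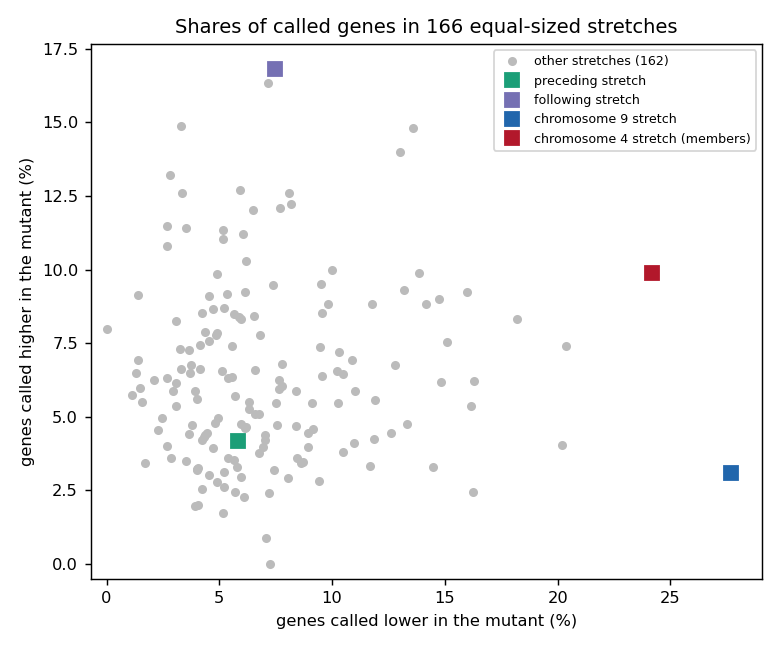
Share of genes called higher (y axis, percent) against the share called lower (x axis, percent) in each of 166 stretches of equal ID span. The members' stretch on chromosome 4 (24.2% lower, 9.89% higher) and the stretch from Zm00001eb382210 (27.7% lower, 3.08% higher) lie to the right of the rest. The preceding stretch by ID, which reaches back to chromosome 3, sits among the others, and the following one lies high on the y axis at 16.8%.

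The limits on level cut between like genes. Just inside a mean of 1 FPKM were Zm00001eb165170, with 1.37 and 1.70 FPKM in the WT and 0.50 and 0.63 FPKM in the mutant, and Zm00001eb165000, with 1.54 and 2.39 against 0.68 and 0.36 FPKM. Just outside were Zm00001eb164990, with 2.07 and 1.72 against 0 and 0 FPKM (26 and 20 against 0 and 0 reads), and Zm00001eb166370, with 0.87 and 1.89 against 0.97 and 0 FPKM. The members nearest the upper limit were Zm00001eb166590 and Zm00001eb164730, and just above it lay Zm00001eb166670, with 487 and 515 against 406 and 330 FPKM, and then ZG99. As bulk RNA was measured, a lower value may come from fewer cells with the transcript or from less of it per cell, and these cannot be told apart. Both genotypes also segregated from a cross of B73 with KN5585, and which parental alleles each pool carried along this stretch was not determined. The differences are thus between these pools, and their tie to the NAC knockouts was not tested.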

How the data were processed

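The authors sequenced polyA RNA as paired-end reads, aligned it to B73 RefGen_v5 with HISAT2 and deposited FPKM values per gene, each library scaled to its own total. The sources used here do not name the program behind the FPKM, the strand setting or the handling of reads that fit several genes. The study calls its samples independent, while the labels do not name separate plants or cultures. The p-values measure the spread between these libraries. The 19082 genes averaging 1 FPKM or more were compared as log2(FPKM + 1) with limma 3.58.1 in R 4.3.3 (lmFit, eBayes with trend, two-sided, 2 residual plus 4.04 prior degrees of freedom), on 2 libraries per genotype. Fold changes on this scale understate those of low genes. Ratios are of mean FPKM. Reads were recovered from the FPKM steps, and all 33589 genes above 0 came out whole within 0.005 reads. Members had 83 or more reads summed over libraries (median 1257).

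The members, lists and named genes were chosen with earlier results of these data known. Named were called members with a description, the 10 largest falls and up to 10 largest rises among called members with at least 5 FPKM in the higher genotype and no overlap, BX6, the members nearest the level limits and the storage genes, and the 5 most abundant. Other called members are named to complete the set. RefSeq served for names and places. Alternatives were pseudocounts of 0.1 and 10, other filters and scalings, voom on recovered reads, all 6 columns, a replicate block and leaving out each library. Python 3.11.15 with pandas 2.3.3, numpy 2.4.6 and matplotlib 3.10.9 was used. The fit was tested on simulated data.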

Additional observations from a re-analysis of the deposited data

How the results depend on the processing

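No named gene changed direction under any alternative. The 22 lower and 9 higher calls stayed at 21 to 27 and 7 to 10 under most of them. With a pseudocount of 10 they were 7 and 4 (612 genes called over the genome, against 2598), with a filter at a mean of 10 FPKM they were 6 and 2 (936 genes, of which 54.5% were higher, against 47.2% with the filter at 1 FPKM), and with no threshold on size 38 and 15. Without the members within 10 ID places of a storage gene, an alternative chosen after seeing the data, 18 falls and 4 rises were left. The median log2 difference of -0.17 was -0.20 with a pseudocount of 0.1, -0.094 with one of 10, -0.093 with no filter (176 members), -0.14 on all 6 columns and -0.20 with voom on recovered reads. Rescaled without genes above 500 FPKM it was -0.31, where the median of all genes moved from 0.0068 to -0.13, the members were 25 lower and 7 higher, and the split of all calls went from 47.2% to 36.9% higher. Leaving out each library gave medians from -0.20 to -0.14, 21 to 23 lower and 7 to 10 higher calls, 2061 to 2724 genes called over the genome, and place 2 or 3 by share called lower. The place was 1 with no filter. Of the 22 lower and 9 higher calls, 6 and 2 held under every alternative. A member not tested with the filter at 10 FPKM counted as not held, and only 36 members were tested there. The 2 rises that held were those of Zm00001eb166580 and Zm00001eb166590, and the falls included that of Zm00001eb166550, all possible zein copies. For the named genes, counted next, an untested setting was not counted as a loss. Of 20 named genes called, 12 lost the call under at least 1 alternative, 8 of them only with the pseudocount of 10.

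With a replicate block the members gave 22 lower and 9 higher calls, as without it, and 2632 genes were called over the genome. The numbers did not pair the libraries (correlation of the differences between same-numbered libraries -0.078). With 2 libraries per genotype, and a lone library assumed to vary like the others when 1 is left out, small differences cannot be settled, and values of under 1 FPKM rest on few reads.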
